A study of Mus musculus with 8 samples.

Results

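Atf4 and 7 genes that act with it in the stress response, Atf3, Atf5, Ddit3, Cebpb, Cebpg, Nupr1 and Trib3, were followed by single-cell RNA sequencing through the cell classes of B16F10 mouse melanomas. They were taken by gene symbol and make up 8 of the 31053 genes in the count matrices. B16F10 is a transplantable melanoma line of the C57BL/6 strain, and its Atf4 gene was not targeted. The hosts were C57BL/6 mice that all carried Rosa26::CreERT2, a Cre recombinase expressed broadly from the Rosa26 locus and activated by tamoxifen, and all hosts received tamoxifen. The 4 Atf4wt/wt hosts had wild-type Atf4. The 4 Atf4D/D hosts had been Atf4fl/fl, with loxP sites on either side of exons 2 and 3, so that the deletion concerned host cells and not tumour cells. Mice were labelled as 12 weeks old, and 1 tumour labelled large was dissociated from each. The Atf4wt/wt group held 2 males and 2 females, and the Atf4D/D group 3 males and 1 female.

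ATF4 is a basic leucine zipper (bZIP) transcription factor and the main effector of the integrated stress response. Kinases that sense amino acid shortage, unfolded protein in the endoplasmic reticulum, haem shortage or viral RNA phosphorylate the initiation factor eIF2, which lowers general translation but raises translation of the Atf4 mRNA. The level of Atf4 mRNA is therefore not a reading of ATF4 protein. ATF4 pairs with other bZIP factors, among them the C/EBP proteins encoded by Cebpb and Cebpg and the stress factor CHOP encoded by Ddit3. Atf3 and Atf5 encode related bZIP factors that are themselves induced in the response. Nupr1 encodes a small stress-induced chromatin protein, and Trib3 a pseudokinase that binds ATF4 and restrains it. Neither of these last is a bZIP factor.

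The DNA element bound by ATF4 with a C/EBP partner joins a C/EBP part to an ATF part and is called the C/EBP-ATF response element. Promoter windows from 250 bases before to 50 bases after each transcription start were taken from RefSeq on GRCm38.p6, and all 8 genes had one. The element was searched on both strands as TGATGCAA, its core, and as TGATGNAAT, a longer form that overlaps the core. The core was in 0.895% of all 32851 windows and the longer form in 0.965%. Among the 8 genes the core was found in the windows of Atf3 and Nupr1, and the longer form in that of Nupr1. Of 34 genes on a list of known ATF4 targets that had a window, 10 held the core. The sites of both members are shown because they carry the letters that these paired factors recognise. Each is written 5′ to 3′ on the strand of its gene with the match in capitals, which here reads as the reverse complement of the searched letters.
Nupr1: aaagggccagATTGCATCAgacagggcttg
Atf3: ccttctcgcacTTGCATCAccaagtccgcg

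The Nupr1 site lies at chr7:126625562-126625591 and the Atf3 site at chr1:191183425-191183454, both on the minus strand. The cyclic AMP response element TGACGTCA, present in 1.79% of windows, was in none of the 8 members' windows. The AP-1 element TGACTCA, present in 5.2% of windows, was in that of Ddit3 alone. A match says only that these letters are in the window.

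In the GRCm38 annotation Atf4 has 3 exons on the plus strand at chr15:80255184-80257541. The last, chr15:80256634-80257541, holds the 3′ end of the transcript, from which these libraries were read, and lies inside the floxed part. The count of Atf4 therefore reads the deleted sequence. Atf5 at chr7:44812256-44816658 and Ddit3 at chr10:127290774-127296288 overlap genes on the opposite strand, among them Nup62 and Il4i1 for Atf5 and Mars for Ddit3. On the same strand, Ddit3 overlaps another annotated gene of that name, and Cebpg overlaps Gm44836 and Gm45094.

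Each tumour gave 4231 to 8696 cell barcodes and 37283598 to 74942137 unique molecular identifiers (UMIs, counting captured mRNA molecules), and 28411 cells passed the filters. Pairs of libraries shared 2 to 14 barcodes. Clustering, with the 8 genes left out of the genes it used, gave 23756 melanoma-like cells, 653 cancer-associated fibroblast (CAF)-like cells and 864 immune cells. Of the immune cells, 264 were tumour-associated macrophage (TAM)-like. The collagen genes Col3a1, Col1a1 and Col1a2 led the CAF-like cells. A cluster of 243 cells, 231 of them from Atf4wt/wt replicate 4, was left out for having the highest median mitochondrial share, 7.03%. Its leading genes included Nupr1, and 7 melanoma markers were found in at least 50% of its cells. A further 2751 cells stayed unnamed. Subclusters led by melanoma markers were kept out of the CAF-like cells (79 cells) and of the immune cells (33 cells). The Atf4D/D tumours held 107, 91, 10 and 214 CAF-like cells and the Atf4wt/wt tumours 45 to 62. Every CAF-like value of Atf4D/D replicate 3 thus rests on 10 cells. Levels below are counts of a gene per 1000000 UMIs of all genes in that class of that tumour (CPM), and the tests compared these sums over tumours.

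Atf4, the deleted gene, was lower in CAF-like and immune cells of Atf4D/D tumours, and its level in melanoma-like cells overlapped between the hosts. In CAF-like cells Atf4 stood at 313, 268, 283 and 247 CPM in Atf4wt/wt replicates 1 to 4. In Atf4D/D replicates 1 to 4 it stood at 94.9, 74.9, 171 and 45.2 CPM. Every Atf4D/D tumour lay below every Atf4wt/wt tumour, as was so for 2.19% of the genes tested. The means were 278 ± 27.5 and 96.6 ± 53.9 CPM (SD, n = 4 each), and the log2 fold change was -1.86 (SE 0.26, adjusted p = 0.00822, edgeR quasi-likelihood test). Atf4 was the 1 member to pass an adjusted p of 0.05 in CAF-like cells, where 0.027% of the 3705 genes tested passed with a lower level in Atf4D/D tumours and 0.081% in either direction. Without Atf4D/D replicate 2 the adjusted p was 0.0908. Without Atf4D/D replicate 3, the tumour with 10 CAF-like cells, the log2 fold change was -1.96.

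In immune cells Atf4 stood at 158, 293, 254 and 231 CPM in the Atf4wt/wt tumours. In the Atf4D/D tumours it stood at 66.3, 61.5, 54.7 and 65.0 CPM, a narrow range below every Atf4wt/wt value, as for 3.93% of the genes tested. The means were 234 ± 56.4 and 61.9 ± 5.19 CPM (SD, n = 4 each). The log2 fold change was -1.86 (SE 0.25, adjusted p = 0.00898, edgeR quasi-likelihood test), and Atf4 was the 1 gene of 2492 to pass, or 0.0401%. Without Atf4wt/wt replicate 3 the adjusted p was 0.0736, and without Atf4D/D replicate 2 it was 0.0767. Within the unnamed immune clusters, the larger part of the immune cells, Atf4 stood at 267 ± 74.7 CPM in Atf4wt/wt and 49.3 ± 30.8 in Atf4D/D tumours (SD, n = 4 each).

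In TAM-like cells, led by the macrophage genes Ccl8, Ms4a7 and C1qa, the genotypes overlapped. Atf4 stood at 169, 258 and 40.8 CPM in Atf4wt/wt replicates 1, 3 and 4, and replicate 2 was left out because it held 4 such cells. In the Atf4D/D tumours it stood at 40.2, 75.7, 53.7 and 165 CPM. The overlap rests on Atf4wt/wt replicate 4, with 2 Atf4 UMIs in 16 cells, since replicates 1 and 3 lay above every Atf4D/D value. Atf4D/D replicates 1 and 3 held 3 Atf4 UMIs each and replicate 4 held 11. The log2 fold change was -0.98 with an interval (2 SE either way) of -2.13 to 0.18 (adjusted p = 0.734, edgeR quasi-likelihood test, 0.0909% of 1100 genes passing). This interval holds both 0 and the value over all immune cells.

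In melanoma-like cells Atf4 stood at 262, 405, 358 and 409 CPM in the Atf4wt/wt tumours. The Atf4D/D tumours gave 311, 421, 442 and 337 CPM, over much the same span. The log2 fold change was 0.03 with an interval (2 SE either way) of -0.29 to 0.35 (adjusted p = 0.964, edgeR quasi-likelihood test, 0.0398% of 12555 genes passing). In a fit of both classes with the tumour as a block, the genotype differences of Atf4 in fibroblasts and in melanoma-like cells themselves differed by -1.83 on the log2 scale (SE 0.24, adjusted p = 1.71e-10, 0.535% of 12706 genes passing). With limma voom in place of edgeR this value was -1.96, but its adjusted p was 0.246. The edgeR p draws on a spread shared over genes, so it does not measure the spread of Atf4 alone between tumours. Why the p-values of the tools differ was not tested.

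**Figure D1:**
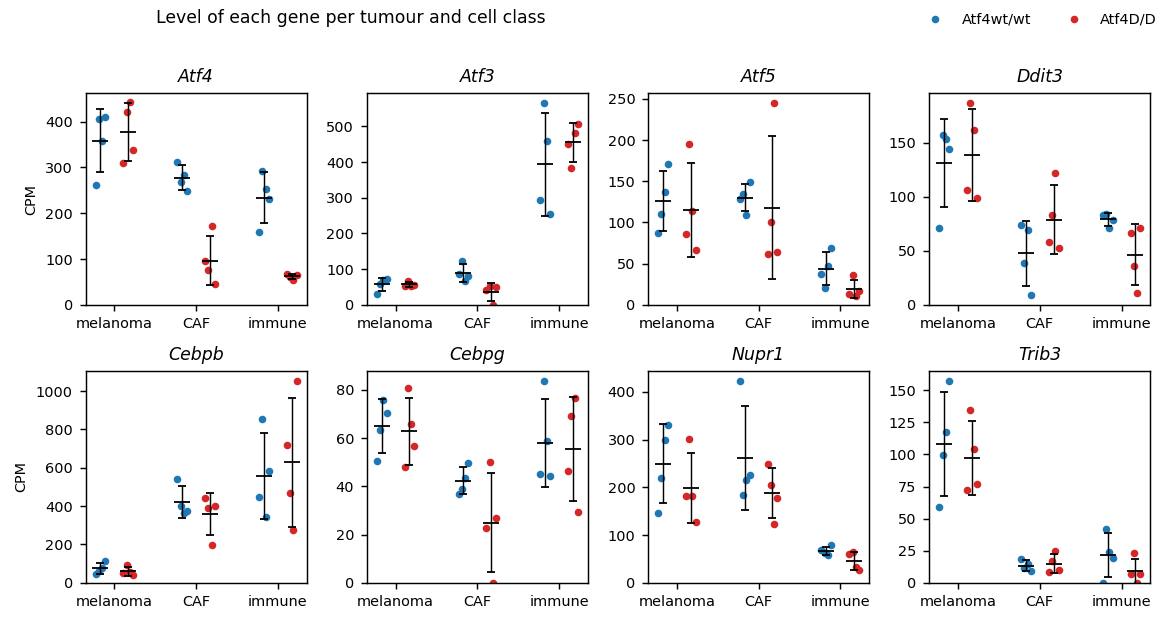
Level of each of the 8 genes, in CPM on linear axes that start at 0, in the melanoma-like, CAF-like and immune cells of each tumour. Points are tumours, blue for Atf4wt/wt and red for Atf4D/D hosts, and lines give the mean and SD of each group. Atf4 separates the genotypes in CAF-like cells (278 against 96.6 on average) and in immune cells (234 against 61.9), and in melanoma-like cells the groups overlap.

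Some melanoma RNA was captured with host cells. From the pigment genes Dct, Pmel, Mlana, Tyrp1 and Tyr, melanoma RNA was estimated at 3.4% to 6.2% of the UMIs of CAF-like cells in Atf4wt/wt tumours and at 3.7% to 6.9% in Atf4D/D tumours. In immune cells the estimates were 7.2% to 12.0% and 7.5% to 7.8%. At the Atf4 level of melanoma-like cells, this RNA would give 14.4 of the 249 Atf4 UMIs in Atf4wt/wt CAF-like cells and 32.0 of the 132 in Atf4D/D CAF-like cells. For immune cells it would give 19.0 of 125 and 27.2 of 59. With this part taken off in each tumour, Atf4 in CAF-like cells was at 262 ± 28.6 CPM in Atf4wt/wt and 76.5 ± 50.2 in Atf4D/D tumours (SD, n = 4 each). In immune cells it was at 200 ± 55.8 and 32.9 ± 10.4 CPM.

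The difference was smaller in cells classed in another way. When cells were classed by how many fibroblast markers they held, without clusters, 972 cells qualified, of which 25.4% came from the melanoma-like clusters. Their estimated share of melanoma RNA was 35% to 54.9% in Atf4wt/wt and 16.3% to 69.1% in Atf4D/D tumours. In these cells the log2 fold change of Atf4 was -0.48 (adjusted p = 0.572, edgeR quasi-likelihood test), and its difference from melanoma-like cells was -0.47 (adjusted p = 0.661). Immune cells classed in the same way had an estimated melanoma share of 35% to 57.6% in Atf4wt/wt and 7.7% to 45.2% in Atf4D/D tumours, and an Atf4 log2 fold change of -1.02 (adjusted p = 0.218). With the estimated melanoma part taken off in each tumour, Atf4 in the cells classed by fibroblast markers was at 157 ± 49.98 CPM in Atf4wt/wt and 62.4 ± 103 in Atf4D/D tumours, which overlapped. The values ran from 107 to 216 CPM and from -23.7 to 211 CPM. Atf4D/D replicate 3 held 11 of these cells. Pooled over Atf4D/D tumours, the melanoma part was estimated at 1254 UMIs against 1252 Atf4 UMIs counted. In cells classed by immune markers Atf4 was at 95.6 ± 12.4 and 22.1 ± 24.5 CPM (SD, n = 4 each).

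The share of cells with an Atf4 UMI was set beside these levels. With every cell thinned to 2000 UMIs, 44.0% of 184 Atf4wt/wt CAF-like cells (95% exact binomial interval 36.7% to 51.5%) and 11.9% of 385 Atf4D/D CAF-like cells (8.88% to 15.6%) held one. Intervals on pooled cells cover counting error only, and thinning left out 47 and 37 shallower cells. Before thinning, 214 of the 422 Atf4D/D CAF-like cells came from replicate 4, the tumour with the lowest Atf4 level. Without thinning the shares were 57.6% and 22.7%, at median depths of 3693 and 4597.5 UMIs. In melanoma-like cells outside the stress cluster described below, the thinned shares were 42.9% in Atf4wt/wt and 47.6% in Atf4D/D tumours.

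Smaller host classes were pooled over tumours and have no replicate test. The CAF-like subcluster led by Spp1, Tnc and Inhba held 285 CPM of Atf4 in Atf4wt/wt tumours (95% Poisson interval 248 to 327) and 71.6 in Atf4D/D tumours (59.3 to 85.8). In the subcluster led by Cxcl13, Ptx3 and Pi16 the levels were 350 (214 to 541) and 34.1 CPM (17 to 61.0). The subcluster led by Rgs5 and Acta2, genes of the mural cells of vessels, held 20 and 3 Atf4 UMIs, or 192 (118 to 297) and 45.9 CPM (9.47 to 134). These intervals leave out the spread between tumours. Atf4D/D replicate 4 gave 162 of the 337 Atf4D/D cells led by Spp1 and 35 of the 65 led by Cxcl13. In the mural subcluster 18 of 35 Atf4wt/wt cells came from replicate 2 and 17 of 20 Atf4D/D cells from replicate 4. T/NK-like cells held 17 Atf4 UMIs in 56 Atf4wt/wt cells, or 271 CPM (158 to 435). They held 0 in 26 Atf4D/D cells, which allows up to 115 CPM. Endothelial-like cells held 11 Atf4 UMIs in 18 Atf4wt/wt cells, or 211 CPM (105 to 377), and 0 in 14 Atf4D/D cells, which allows up to 75.3.

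None of the other 7 genes passed the adjusted threshold between genotypes in any class tested. Atf3, a bZIP factor induced early by many kinds of stress, had the smallest p of the 5 of these genes that were tested in CAF-like cells. It stood at 87.4, 123, 65.4 and 81.0 CPM in the Atf4wt/wt tumours. In the Atf4D/D tumours it stood at 41.3, 52.7, 0 and 51.3, where the count of 0 in replicate 3 allows up to 73.5 CPM. The measured groups did not overlap, but with that limit they would. The log2 fold change was -0.84 (SE 0.28, unadjusted p = 0.0089, adjusted p = 0.471, edgeR quasi-likelihood test). At an unadjusted p under 0.05, 3.16% of the genes tested were lower in Atf4D/D CAF-like cells. The mural subcluster, whose Atf3 is given below, made up 35 of 231 Atf4wt/wt and 20 of 422 Atf4D/D CAF-like cells. In Atf4wt/wt replicate 2, the tumour with the highest Atf3, it made up 18 of 45. Whether this composition bears on the Atf3 difference was not tested. In immune cells Atf3 had a log2 fold change of 0.25 with an interval (2 SE either way) of -0.24 to 0.74, and the Atf4D/D range of 382 to 507 CPM lay within the Atf4wt/wt range of 256 to 564.4.

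Atf5, a bZIP factor of the amino acid and mitochondrial stress responses, stood in CAF-like cells at 129, 134, 109 and 149 CPM in Atf4wt/wt tumours. In Atf4D/D tumours it stood at 61.9, 99.9, 245 and 64.3, the high value being that of the tumour with 10 cells. The log2 fold change was -0.61 (SE 0.29, adjusted p = 0.677, edgeR quasi-likelihood test). Cebpb, a C/EBP factor of inflammatory and adipocyte genes, ranged from 363 to 543 CPM in Atf4wt/wt and from 196 to 444 in Atf4D/D CAF-like cells. Its log2 fold change was -0.09 with an interval (2 SE either way) of -0.51 to 0.33, so a difference of the size seen for Atf4 is outside the interval.

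Ddit3, which encodes CHOP, stood in CAF-like cells at 73.6, 39.1, 69.0 and 9.0 CPM in Atf4wt/wt tumours and at 57.8, 83.3, 122 and 52.2 in Atf4D/D tumours. The groups overlapped, and the log2 fold change was 0.42 (SE 0.39, adjusted p = 0.874, edgeR quasi-likelihood test). In immune cells Ddit3 stood at 83.0, 83.6, 70.8 and 78.6 CPM in Atf4wt/wt tumours and at 66.3, 35.9, 10.9 and 71.5 in Atf4D/D tumours. The groups overlapped there by 1 tumour of each, and the log2 fold change was -0.64 (SE 0.38, adjusted p = 0.663). The sign thus differed between the host classes while the test passed in neither.

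Nupr1 in CAF-like cells ranged from 184 to 423 CPM in Atf4wt/wt and from 122 to 248 in Atf4D/D tumours (log2 fold change -0.34, adjusted p = 0.844, edgeR quasi-likelihood test). In immune cells it ranged from 59.0 to 78.6 in Atf4wt/wt tumours and from 26.0 to 64.1 CPM in Atf4D/D tumours (log2 fold change -0.53, adjusted p = 0.731). Cebpg, a C/EBP partner without an activation domain of its own, and Trib3 were under the low-count filter in both classes, and Atf5 was under it in immune cells. Atf5 stood there at 37.7, 20.9, 47.2 and 68.8 CPM in Atf4wt/wt tumours and at 13.3, 35.9, 10.9 and 16.3 in Atf4D/D tumours, which overlapped. In CAF-like cells their highest levels in any tumour were 49.97 CPM for Cebpg and 24.5 for Trib3, and the genotypes overlapped for both. In TAM-like cells Atf3 and Cebpb were tested beside Atf4, with log2 fold changes of 0.22 (adjusted p = 0.875) and 0.34 (adjusted p = 0.848).

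In melanoma-like cells all 8 genes passed the filter and none passed the test. Their log2 fold changes ran from -0.38 for Cebpb to 0.03 for Atf4 and Ddit3, with adjusted p from 0.749 to 0.984. Atf5 stood at 86.7, 110, 137 and 171 CPM in Atf4wt/wt tumours and at 85.9, 195, 113 and 66.5 in Atf4D/D tumours. The spread within each genotype was thus wider than the difference between them, and the interval of 2 SE either way of the Atf5 log2 fold change ran from -0.94 to 0.59. In the fit of CAF-like against melanoma-like cells, the difference was -0.79 for Atf3 (SE 0.30, adjusted p = 0.431, edgeR quasi-likelihood test) and 0.58 for Ddit3 (SE 0.31, adjusted p = 0.790).

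**Figure D2:**
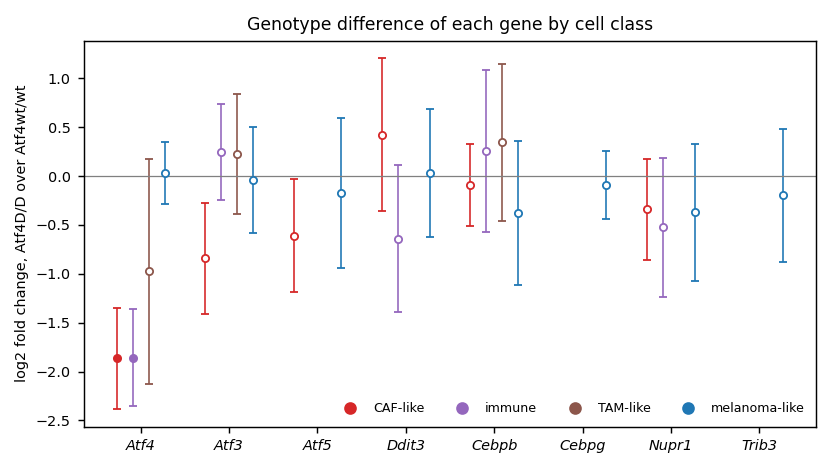
Log2 fold change, Atf4D/D minus Atf4wt/wt, of each of the 8 genes that passed the low-count filter, by cell class, with intervals of 2 SE either way from the edgeR fit. The intervals of Atf4 in CAF-like and immune cells, both centred at -1.86, lie below 0, and all values in melanoma-like cells lie between -0.38 and 0.03.

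Between cell classes some members were higher in host cells and others in melanoma cells. Cebpb was higher in CAF-like than in melanoma-like cells in 8 of 8 tumours, with means of 389 ± 96.5 and 66.8 ± 25.7 CPM (SD, n = 8), a ratio of 5.82. In immune cells it was higher than in melanoma-like cells in 8 of 8 tumours, at a ratio of 8.87. Atf3 was 7.45-fold higher in immune than in melanoma-like cells (8 of 8 tumours) and 8.61-fold higher in TAM-like cells (7 of 7 tumours). These ratios are descriptions, since the classes were drawn from the same cells.

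Trib3 was lower in CAF-like than in melanoma-like cells of 8 of 8 tumours, at 0.136 of their level, and lower in immune cells of 8 of 8 tumours, at 0.148. Nupr1 and Atf5 were lower in immune than in melanoma-like cells in 8 of 8 tumours, at 0.252 and 0.260 of the melanoma level. In CAF-like cells the means of both were near those of melanoma-like cells, at 1.01 and 1.03 of them, but single tumours varied. Each gene was higher in CAF-like cells in 3 of 8 tumours. The ratio per tumour ran from 0.68 to 2.89 for Nupr1 and from 0.51 to 2.16 for Atf5. CAF-like cells thus held 3.99-fold more Nupr1 and 3.95-fold more Atf5 than immune cells, higher in 8 of 8 tumours, whereas their Atf3 was lower in 8 of 8, at 0.148 of the immune level. Melanoma RNA was not taken off for these ratios or for the levels given next. In pooled immune cells of Atf4wt/wt and Atf4D/D tumours it would give 6.16 of 10 and 7.42 of 12 Trib3 UMIs. It would also give 36.9% and 34.2% of their Nupr1 UMIs and 25.7% and 41.8% of their Atf5 UMIs. In CAF-like cells it would give 36.8% and 37.7% of Trib3 UMIs. With it taken off, immune Trib3 ran from -7.05 to 32.8 and from -8.16 to 12.7 CPM per tumour, which does not show Trib3 in immune cells themselves.

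Ordered by level over all tumours, Atf3 was highest in TAM-like cells (491 ± 173 CPM) and in the unnamed immune clusters (473 ± 172), which overlapped. Dendritic-like cells (134 ± 60.5), CAF-like cells (62.7 ± 36.2) and melanoma-like cells (57.0 ± 13.1) came below, each overlapping the next. For Cebpb the unnamed immune clusters (889 ± 330) stood above CAF-like cells (389 ± 96.5), which overlapped TAM-like cells (336 ± 145), and melanoma-like cells lay lower. Nupr1 stood at 225 ± 88.5 in CAF-like and 224 ± 77.2 in melanoma-like cells, apart from 70.3 ± 51.7 in the unnamed immune clusters. Within Atf4wt/wt tumours, Atf4 stood at 358 ± 68.4 CPM in melanoma-like, 278 ± 27.5 in CAF-like, 267 ± 74.7 in unnamed immune, 255 ± 85.5 in T/NK-like and 156 ± 109 in TAM-like cells, and the SDs of all neighbours overlapped. Within Atf4D/D tumours melanoma-like cells (378 ± 63.6) stood apart from CAF-like (96.6 ± 53.9), TAM-like (83.7 ± 56.3) and unnamed immune cells (49.3 ± 30.8), which overlapped each other.

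Host subclusters differed among themselves in values pooled over both genotypes and all tumours, with intervals that leave out the spread between tumours. An immune subcluster of 91 cells led by Arg1, Inhba and Mmp12 held 990 CPM of Atf3 (95% Poisson interval 812 to 1195). Of these cells 73 came from Atf4D/D tumours, 44 of them from replicate 4. In an immune subcluster of 323 cells led by Igkc, Chil3 and Il1b, Cebpb stood at 1188 (1080 to 1303). Of these cells 97 came from Atf4wt/wt replicate 4 and 118 from Atf4D/D replicate 4. The mural cells held 177 CPM of Atf3 (120 to 253) and 65.0 of Nupr1 (32.5 to 116). In the Spp1 and Tnc fibroblasts the order was turned round, with 48.3 of Atf3 (39.9 to 58.0) and 236 of Nupr1 (217 to 256). Because melanoma-like cells gave 95.8% of all UMIs kept, they also held most UMIs of each gene, among them 85.0% for Cebpb, 91.7% for Atf3 and 96.9% for Atf4.

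Among melanoma-like cells the 8 genes were highest in 1 cluster. Cluster 3 held 275 to 514 cells per tumour and was led by Nupr1, Hspa5, Ddit3, Herpud1, Atf5, Trib3 and Dnajb9. Hspa5 and Dnajb9 encode chaperones and Herpud1 a degradation factor of the endoplasmic reticulum, all induced by unfolded protein. It is called the stress cluster here after these genes, and was taken as the melanoma-like cluster with the highest share of Ddit3 among its UMIs. First place for Ddit3 was therefore fixed by this choice. Since the cluster was drawn from the same cells, the levels that follow are a description.

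Nupr1 stood in the stress cluster at 578, 769, 692 and 706 CPM in Atf4wt/wt tumours and at 740, 659, 642 and 663 in Atf4D/D tumours. Its mean of 681 ± 59.7 (SD, n = 8) was 4.25-fold that of the other melanoma-like clusters. Ddit3 stood at 218, 454, 322 and 292 CPM in Atf4wt/wt tumours and at 270, 430, 551 and 326 in Atf4D/D tumours, 3.41-fold above the other clusters on average. The ratios were 3.19 for Atf5, 3.13 for Trib3, 3.03 for Cebpb, 2.42 for Atf3, 1.76 for Atf4 and 1.73 for Cebpg. For all 8 genes the stress cluster was higher in 8 of 8 tumours, so the pattern was shared by both hosts.

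Atf4 stood in the stress cluster at 455, 670, 517 and 578 CPM in Atf4wt/wt tumours and at 522, 609, 752 and 650 in Atf4D/D tumours. The stress cluster was first of the 10 melanoma-like clusters for each gene, for Ddit3 by the way it was chosen. Its mean less 1 SD lay above the mean plus 1 SD of the next cluster for 6 of the 8. The exceptions were Atf3, at 117 ± 29 against 86.6 ± 16.8 in cluster 1, led by the hypoxia genes Ero1l, Bnip3 and Car9, and Cebpg, at 102 ± 9.1 against 77.6 ± 17.9 in cluster 12, led by Lgals3 and Gpnmb. The lowest level of each gene was in cluster 4 or cluster 6, led by the cell division genes Cenpa and Ccnb2 and by the replication genes Mcm3 and Cdt1. The cluster left out for its mitochondrial share was not ranked. That cluster held 0.426% of all UMIs kept, but 1.20% of those of Nupr1 and 0.970% of those of Ddit3. Its lowest share of a member was 0.341%, for Cebpg.

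**Figure D3:**
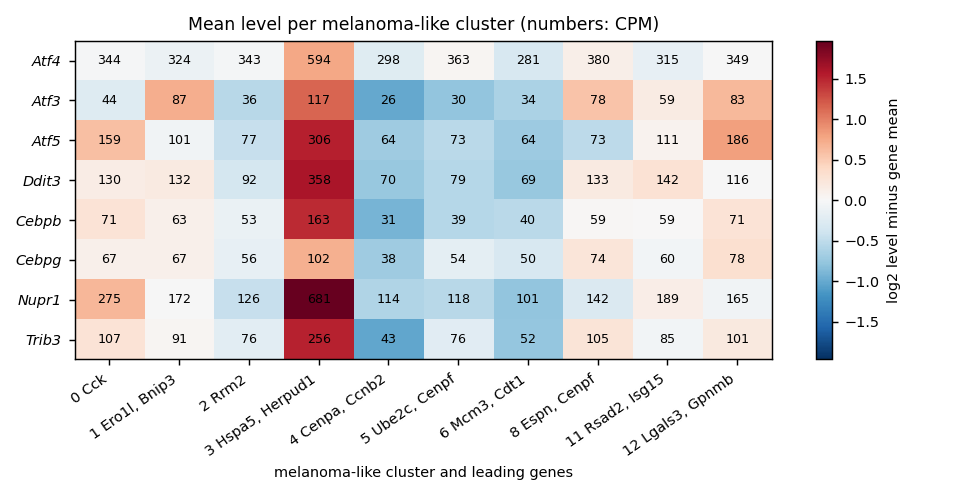
Mean level of each gene in each melanoma-like cluster over the tumours, printed in CPM, with colour giving the log2 level less the gene's mean over clusters. Columns are clusters with their leading genes. The stress cluster, 3, which was picked by its Ddit3 share, holds the highest level of all 8 genes, from 102 CPM for Cebpg to 681 for Nupr1.

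The stress cluster held 13.1% of melanoma-like cells (9.7% to 19.8% per tumour) and 11.6% of their UMIs. It held 37.2% of their Nupr1 UMIs, 31.6% of Ddit3, 30.5% of Atf5, 30.2% of Trib3, 29.8% of Cebpb, 25.2% of Atf3 and 18.9% each of Atf4 and Cebpg. Between genotypes none of the 8 genes passed within this cluster. Their log2 fold changes ran from -0.16 for Cebpb to 0.24 for Ddit3, with adjusted p from 0.672 to 0.976 in the edgeR quasi-likelihood test.

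**Figure D4:**
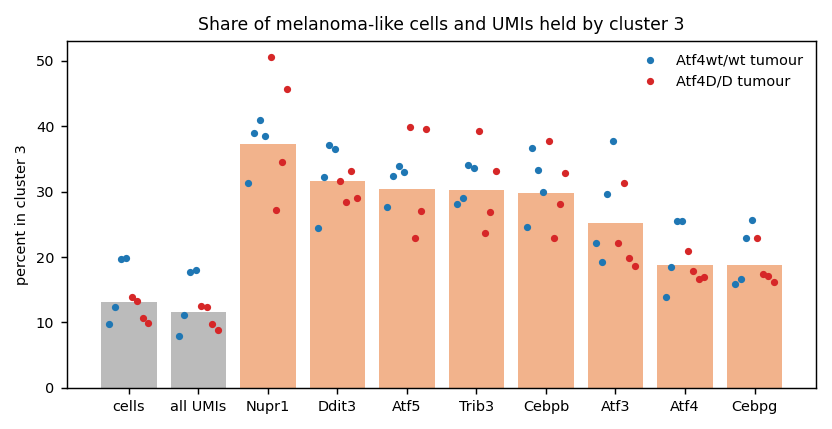
Share of the melanoma-like cells, of their UMIs and of the UMIs of each gene that lay in the stress cluster, in percent, with 1 point per tumour coloured by host genotype. For all 8 genes the pooled share, 18.9% to 37.2%, is above the 11.6% of all UMIs.

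Across melanoma-like clusters and tumours, with the tumour mean taken off log2 levels, the members correlated with each other at r between 0.63 and 0.93 over 80 sums of a cluster in a tumour. Without the stress cluster r ran from 0.32 to 0.89 over 72 sums. The points share tumours and libraries, so these values are a description. The genes most like Atf4, out of 5845, were Pck2 (r = 0.90), Gars, Eif3c, Trib3 and Slc3a2. Pck2 encodes a mitochondrial gluconeogenic enzyme, Gars the glycine tRNA synthetase and Slc3a2 a subunit of amino acid transporters. Atf5 was most like Fam129a (r = 0.95), and its list held Asns, the asparagine synthetase gene. Cebpb was most like Sars (r = 0.95), the serine tRNA synthetase gene, followed by Trib3, Nars, Eif4ebp1 and Eprs.

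Trib3 was itself most like Sars (r = 0.94), followed by Cebpg, Aldh1l2, Cebpb and Asns. Cebpg was most like Trib3 (r = 0.93), and Ddit3 was most like Nupr1 (r = 0.91), ahead of Trib3, Slc3a2, Ppp1r15a and Aldh1l2. Nupr1 was most like Chchd10 (r = 0.95), a nuclear gene for a mitochondrial protein, ahead of Ghitm, Mia2, Sars and Slc3a2. Atf3 was most like Eif4ebp1 (r = 0.93), a repressor of translation, and its list also held Zyx, Jund, Rhob and P3h3. Sars was on the lists of 4 members, and Slc3a2, Eif4ebp1 and Aldh1l2 on those of 3 each.

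Known ATF4 targets were counted as a list of 43 genes, of which 20 passed the filter in CAF-like cells. None passed the adjusted threshold. The log2 fold change was below 0 for 15 of the 20, as it was for 50.9% of all genes tested, and the median was -0.23 against -0.0046 for all genes. The most negative were Asns (-1.21, SE 0.26, adjusted p = 0.130, edgeR quasi-likelihood test), the alanine tRNA synthetase gene Aars (-1.16, adjusted p = 0.414) and Mthfd2, a mitochondrial folate enzyme (-1.0, adjusted p = 0.462). Nars, the asparagine tRNA synthetase gene, had -0.63 and Shmt2, a mitochondrial serine enzyme, -0.57. Vldlr, a lipoprotein receptor gene, had the opposite sign (1.24, adjusted p = 0.462).

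In melanoma-like cells 40 targets were tested, none passed, 35 were below 0 against 51.4% of all genes, and the median was -0.12. These cells were not targeted in either host. In immune cells 10 targets were tested and none passed. Of the 10, 6 had a log2 fold change below 0, beside 49% of all genes, with a median of -0.33 against 0.011 for all genes. Chosen after the values were seen, the lowest was Sars (-0.71, adjusted p = 0.463, edgeR quasi-likelihood test) and the highest Eif4ebp1 (0.67, adjusted p = 0.579). In TAM-like cells 3 were tested, none passed and 0 were below 0, against 45% of all genes, with a median of 0.50.

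Of 35 other bZIP genes, 20 were tested in CAF-like cells, none passed and the median log2 fold change was 0.0044. Fosl1, an AP-1 subunit, had the largest difference, 1.74 (SE 0.33, adjusted p = 0.0580, edgeR quasi-likelihood test). Atf6, a sensor of unfolded protein, stood at -0.99 and Nfe2l2, the antioxidant regulator, at 0.62. In immune cells 13 were tested and none passed, 2 were below 0 and the median was 0.36 against 0.011 for all genes. In TAM-like cells 8 were tested and none passed, 0 were below 0 and the median was 0.49 against 0.052 for all genes. Of 15 genes upstream in the integrated stress and unfolded protein responses, 10 were tested in CAF-like cells and none passed, with Herpud1 at -0.94 (adjusted p = 0.335) and Hspa5 at -0.43 (adjusted p = 0.492). In that class the unadjusted p was under 0.05 for 5 of the targets, 3 of the bZIP genes and 2 of the upstream genes, and for 7.37% of all genes tested.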

How the data were processed

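Libraries of 8 tumours were made with the 10x Genomics 3′ V3 kit per the labels. The authors deposited filtered matrices of raw UMI counts per gene and cell. The submitters' processing notes name Cell Ranger 3.1.0, Seurat 3.2.1 and GRCm38. Here cells with 200 to 5000 genes and at most 7.5% mitochondrial UMIs were kept, the 2 genotypes were integrated (Seurat 5.3.0, 2000 variable genes without the 8 members, 20 components) and clusters were named from fixed markers. No doublet caller was run. Doublets were limited only by the upper gene count and by leaving out the subclusters led by melanoma markers (79 and 33 cells). Counts were summed per class and tumour (at least 10 cells) and tested with edgeR 4.0.16 (quasi-likelihood, TMM, filterByExpr, Benjamini-Hochberg over all genes, two-sided) in R 4.3.3. Printed levels (CPM) are per 1000000 UMIs of the whole sum, without TMM, and fold changes are fitted with it. The SE is the log2 fold change over the root of F, and intervals are 2 SE either way of it. A count of 0 is given the limit of 3 counts.

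On simulated counts (3577 genes) the CAF-like fit called 74.1% of genes changed 2-fold and 100% of those changed 4-fold, and 6.06% of its calls were false. The immune fit called 56.6% of genes changed 2-fold (2529 genes). The simulation gave every gene the same dispersion, so it lacks the spread between tumours that differs from gene to gene. These rates do not measure the power in the real sums. Samples were grouped by host genotype per the labels. Tumours with the same replicate number did not deviate together. Alternatives covered the filter, size factors, DESeq2 1.42.0, limma 3.58.1 voom, sex, left-out tumours, minimum cells and cell classes. Named genes are the 8 members, the 5 genes most like each over melanoma-like clusters (Pearson r of log2 of CPM plus 1, genes at 20 or more) and up to 6 genes per list by largest difference in CAF-like cells. Members and lists were chosen with earlier results of these data known. A few items are not reported here.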

Additional observations from a re-analysis of the deposited data

Results flagged for a closer look

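Of 56 groups of 4 tumours checked, 4 had a tumour far from the rest, and chance gives this in about 1 of 20 groups. Nupr1 in CAF-like cells stood at 423 CPM in Atf4wt/wt replicate 1, against at most 225 in the other Atf4wt/wt tumours. Trib3 in TAM-like cells stood at 18.9 CPM, from 5 UMIs, in Atf4D/D replicate 2 and at 0 in the other Atf4D/D tumours. The limit of 3 counts given to a count of 0 lies above 18.9 CPM in each of those tumours. Replicate 2 is thus not shown to differ from them. Atf3 in melanoma-like cells stood at 67.6 CPM in Atf4D/D replicate 2, against at most 54.3 in the others. Ddit3 in melanoma-like cells stood at 71.2 CPM in Atf4wt/wt replicate 1, against at least 145 in the others. The genotype difference of Atf4 differed between CAF-like and melanoma-like cells of the same tumours by -1.83 on the log2 scale in the test of the difference itself.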

How the results depend on the processing

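The Atf4 difference kept its negative sign in CAF-like, immune and TAM-like cells in every setting that gave a value for it. In TAM-like cells 14 of 15 alternative settings gave one. No other member had an adjusted p under 0.05 in any setting. Atf4D/D replicate 3 with 10 CAF-like cells, few immune cells and the unknown share of melanoma RNA per cell limit the host values, and the cause of the changes below was not tested unless a setting itself removes tumours or genes.

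Leaving out 1 tumour at a time, Atf4 ranged from -2.07 to -1.51 in CAF-like and from -2.0 to -1.77 in immune cells. It ranged from -1.35 to -0.39 in TAM-like cells, where 6 of 7 fits gave a value. The range was -0.10 to 0.10 in melanoma-like cells and -2.14 to -1.57 for CAF-like minus melanoma-like cells. The genes called ranged from 0 to 9, 0 to 5, 0 to 2, 0 to 25 and 19 to 97 in the same order, against 3, 1, 1, 5 and 68 with all tumours. Of the other members, Nupr1 ranged from -0.52 to -0.011 and Ddit3 from 0.091 to 0.68 in CAF-like cells without a turn of sign. Signs turned in CAF-like cells for Cebpb (-0.22 to 0.056), in immune cells for Cebpb (-0.12 to 0.50) and in TAM-like cells for Atf3 (-0.068 to 0.47). In melanoma-like cells they turned for Atf3 (-0.26 to 0.083), Atf5 (-0.55 to 0.017), Ddit3 (-0.18 to 0.16) and Trib3 (-0.41 to 0.030). For CAF-like minus melanoma-like cells they turned for Atf5 (-0.45 to 0.020), Nupr1 (-0.13 to 0.63) and Trib3 (-0.22 to 0.50).

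With cells classed by marker counts, Atf4 was -0.48 in CAF-like, -1.02 in immune and -0.47 for CAF-like minus melanoma-like cells, with 0, 0 and 13 genes called, 0 in TAM-like and 2 in melanoma-like cells. Cebpb and Nupr1 turned to -0.12 and -0.17 for the last comparison. With the mitochondrial limit also at 15%, Atf4 was -0.48, -1.20 (adjusted p = 0.0753) and -0.44, with 0, 10 and 5 genes called, 0 in TAM-like and 2 in melanoma-like cells. Ddit3 turned to -0.20 in CAF-like and -0.015 in melanoma-like cells, and Cebpb, Nupr1 and Ddit3 to -0.063, -0.18 and -0.064 for CAF-like minus melanoma-like cells. With limma voom that difference of Atf4 was -1.96 (adjusted p = 0.246) with 2 genes called.

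The replicate numbers shared by both groups do not pair the tumours (correlations of -0.16 to 0.17 in CAF-like cells). With a replicate block Atf4 was -1.82 in CAF-like cells (adjusted p = 0.0030) and -1.87 in immune cells (adjusted p = 0.0849), Atf3 in melanoma-like cells was 0.022, and 1, 0 and 2 genes were called in melanoma-like, immune and TAM-like cells. Without the expression filter 63 genes were called in CAF-like, 44 in melanoma-like, 35 in immune and 2 in TAM-like cells. DESeq2 called 5, 119 and 3 genes in CAF-like, melanoma-like and immune cells, and RLE size factors gave 1 in CAF-like cells. With sex as a covariate 1 gene was called in CAF-like and 1 in melanoma-like cells, where Atf3 was 0.020. With at least 30 cells per tumour 9 genes were called in CAF-like and 5 in TAM-like cells, with Cebpb at 0.029 in the former and Atf3 at -0.36 in the latter. Without CAF-like cells that hold melanoma markers, which also leaves out Atf4D/D replicate 3 since 8 of its cells remain, 11 genes were called, Cebpb was 0.020 and Trib3 for CAF-like minus melanoma-like cells was -0.66.

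Settings added after seeing the data put the subclusters led by melanoma markers back, which gave Atf4 -1.29 in CAF-like (adjusted p = 0.0186) and -1.53 in immune cells (adjusted p = 0.0253). Within the stress cluster alone Atf3, Trib3, Cebpg and Atf5 were 0.073, 0.060, 0.044 and 0.016, and without it Atf3 was 0.0040 and 8 genes were called in melanoma-like cells. All p are from edgeR unless another tool is named.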
